A study of Mus musculus with 12 samples.

Results

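The genes described here are those carried by the mouse mitochondrial DNA, taken as every gene whose symbol starts with mt-, whatever its biotype. The authors' deposited tables listed 18 of them among 24351 genes in all, namely 13 protein-coding genes, 2 ribosomal RNA genes and 3 transfer RNA genes, of the 37 mitochondrial genes in the GENCODE vM21 annotation. The cells were macrophages grown from the bone marrow of C57BL/6 males aged 8 to 16 weeks, by 7 d of culture in 10% serum and 10 ng/mL M-CSF, the growth factor that drives this lineage. The 12 RNA-seq libraries fell into 4 groups of 3, which were untreated controls, cells given monophosphoryl lipid A (MPLA, a detoxified lipid A that acts through Toll-like receptor 4) for 4 h, cells given MPLA for 24 h, and cells harvested 3 d after priming with MPLA had ended. The design asks how RNA levels change early and late in the exposure and what is left of the change days afterwards. The labels' protocols also name MyD88-/- and TRIF-/- males, but no library's label is tied to either. The labels do not give the length of priming in the 3 d group, the harvest time of the controls, or separate animals or cultures for the libraries, so the spread behind each p-value may be a technical one.

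Mitochondrial DNA is a small circular genome present in many copies in each cell. It encodes some of the core subunits of respiratory complexes I, III and IV and of ATP synthase (complex V), with the ribosomal and transfer RNAs needed to translate them. The nucleus encodes every other subunit and every protein that copies the DNA or transcribes, cuts, tails and degrades mitochondrial RNA. Both strands are transcribed as long precursors that are cut mostly at the transfer RNAs between the genes, and the mRNAs receive short poly(A) tails. Activated macrophages are known for moving from respiration towards glycolysis. The libraries here were made from polyadenylated RNA, so each value is the amount of an RNA that carried enough of a tail to be captured, and changes in RNA level and in tailing cannot be told apart. In bulk RNA, fewer mitochondrial genomes per cell and less RNA from each genome cannot be told apart either.

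Part of the mitochondrial DNA is also present in the nuclear genome, and the protein-coding members inside the copied stretch had wider errors than the other protein-coding members. In GRCm38 (mm10), bases 6381 to 11042 of the mitochondrial DNA, from the end of mt-Co1 into mt-Nd4, lie opposite a stretch of chromosome 1 (24611535 to 24616197, minus strand) that holds 7 annotated unprocessed pseudogenes. The first 60 bases of mt-Co2, a core subunit of complex IV, and of its chromosome 1 copy Gm28661 are shown. A read lying wholly within them cannot be assigned to one or the other. Below them are the first 60 bases of the copied part of mt-Co1 (from base 1054 of the gene) with its copy Gm29216, and the first 60 of mt-Nd3 with its copy Gm28438, where capitals mark the bases that differ.
mt-Co2: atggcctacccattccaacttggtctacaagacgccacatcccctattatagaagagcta
Gm28661: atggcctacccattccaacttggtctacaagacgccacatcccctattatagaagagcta
mt-Co1: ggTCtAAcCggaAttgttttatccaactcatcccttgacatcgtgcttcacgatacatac
Gm29216: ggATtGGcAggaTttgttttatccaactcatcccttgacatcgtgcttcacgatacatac
mt-Nd3: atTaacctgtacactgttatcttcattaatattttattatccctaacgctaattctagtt
Gm28438: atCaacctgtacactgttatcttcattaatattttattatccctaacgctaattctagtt
These are GENCODE vM21 transcript sequences, read 5′ to 3′. Over their whole aligned length the copies were identical to mt-Co2 (681 of 681 bases), mt-Atp6 (678 of 678), mt-Co3 (783 of 783), mt-Nd4l (294 of 294) and the first 876 bases of mt-Nd4 (876 of 876). Gm28438 differed from mt-Nd3 at 1 of 345 bases, T3C, and Gm29216 from mt-Co1 at 6 of 492, T1056A, C1057T, A1059G, A1060G, C1062A and A1066T, with positions counted from base 1 of the mitochondrial gene.

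Of all windows of 50 bases in a mitochondrial transcript, the share found exactly in a transcript of another gene was 100% for mt-Co2, 99.9% for mt-Co3, 99.5% for mt-Atp6, 98.8% for mt-Nd4l and 98.0% for mt-Nd3. The share was 62.2% for mt-Nd4 and 51.1% for mt-Co1, which also shares windows with Gm13340 on chromosome 2, and 8.19% for mt-Nd2, 7.61% for mt-Nd5 and 1.04% for mt-Rnr2. It was 0% for mt-Rnr1, mt-Nd1, mt-Nd6, mt-Cytb, mt-Atp8 and the 3 transfer RNA genes. mt-Atp8 lies opposite a part of the chromosome 1 stretch that carries no annotated gene (24614652 to 24614884), so its own share is not known from transcripts. The 7 protein-coding members called not copied whole below are mt-Nd1, mt-Nd2, mt-Nd4, mt-Nd5, mt-Nd6, mt-Co1 and mt-Cytb. The other 6, mt-Nd3, mt-Nd4l, mt-Co2, mt-Co3, mt-Atp6 and mt-Atp8, lie inside the copied stretch. Not copied whole means that under 70% of windows were shared exactly, with mt-Atp8 set apart by position. It does not exclude a diverged copy, since Gm13340 aligned with all 1545 bases of mt-Co1 and differed at 37.

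All changes below are log2 values, MPLA over control, as DESeq2 gave them in the authors' deposited tables; values of edgeR are named as such. A member was called where the DESeq2 adjusted p was under 0.05. The standard error (SE) beside a change is the one implied by the deposited p if that p came from a normal (Wald) test, which no label or header states. The tables hold no values per library, so no level per sample can be shown, and all 3 comparisons share the same 3 controls. The 2 tools' values differed by nearly 1 constant in each table for genes with a small SE, 0.94 at 4 h, 0.41 at 24 h and 0.13 at 3 d. Every change is therefore relative to a scaling, while differences between such members within 1 table are not.

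Most mitochondrially encoded RNAs with an adjusted p were called lower at 24 h and 3 d, while at 4 h the direction of the called members turned with the scaling. At 4 h, 10 of 17 listed members were called higher and 0 lower with DESeq2 in the authors' deposited table, but 0 were higher and 11 lower with edgeR. The background there was 31.8% of all tested genes higher and 31.0% lower with DESeq2, and 13.5% higher and 50.1% lower with edgeR. At that time 5 members passed the baySeq threshold and were higher by the sign of DESeq2, against 23.3% of all genes. The baySeq values are error rates without a direction, so every baySeq call here takes the direction of DESeq2. By all 3 tools 0 were called higher, against 16.6%. At 24 h, 12 of the 16 members with an adjusted p fell and 0 rose with DESeq2 in the authors' deposited table, mt-Co2, mt-Atp8, mt-Nd3 and mt-Tc not being called, against 32.2% of all tested genes lower and 32.4% higher, and edgeR gave 16 lower and 0 higher against 41.8% and 16.2%. At 3 d, 12 of 15 fell and 0 rose with DESeq2, mt-Co1, mt-Rnr1 and mt-Atp8 not being called, against 25.8% and 29.5%, and edgeR gave 13 lower and 0 higher against 27.7% and 15.5%. With baySeq 15 members were lower and 0 higher at 24 h, against 31.3% and 19.6% of all genes, and 8 and 0 at 3 d, against 4.84% and 11.6%. Of the members called by DESeq2, baySeq did not call mt-Nd5 at 24 h (error rate 0.417), or mt-Nd1 (0.226), mt-Nd5 (0.761), mt-Co2 (0.288) and mt-Tc (0.127) at 3 d, in the authors' deposited tables. The median change of the 13 protein-coding members was 0.36 at 4 h, -0.85 at 24 h and -0.81 at 3 d with DESeq2, beside -0.04, -0.05 and -0.02 for all tested genes. With edgeR it was -0.56, -1.26 and -1.21, beside -0.97, -0.46 and -0.15, so under both tools the median member lay above that of all genes at 4 h and below it later. The DESeq2 medians at 4 h and 3 d were the values of mt-Nd4l (SE 1.45) and mt-Atp8 (SE 0.484), neither called. Over the 7 members not copied whole, a split set with the values known, the DESeq2 medians were 0.43, -0.84 and -0.77. At an unadjusted DESeq2 p under 0.05, 0 members were lower at 4 h and 0 higher at 24 h or 3 d. mt-Nd3 had no reads after MPLA at 24 h and lies below the median there whatever its size.

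**Figure D1:**
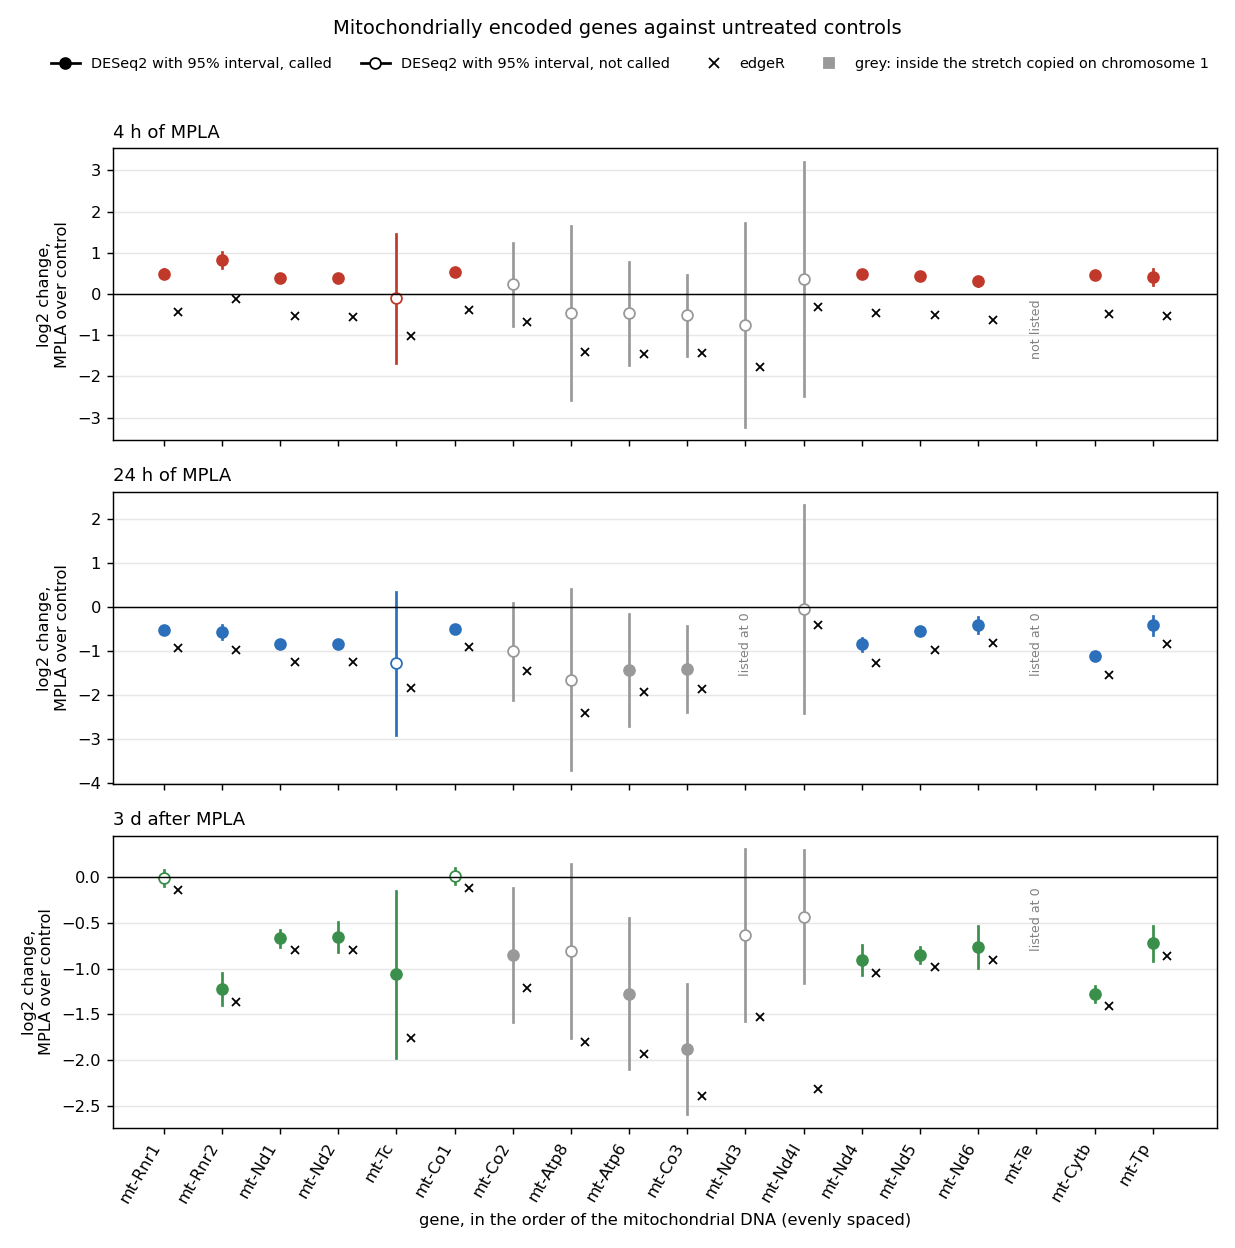
Log2 change against control (vertical axis) of each listed mitochondrial gene in the order of the mitochondrial DNA (horizontal axis, evenly spaced), with 1 panel per time; circles are DESeq2 values with the 95% interval implied by the deposited p, filled where called, crosses are edgeR values, and grey marks members inside the stretch copied on chromosome 1. At 4 h the called members sit between 0.31 and 0.82 with DESeq2 and below 0 with edgeR, and at 3 d mt-Rnr1 and mt-Co1 sit at -0.01 and 0.01 while mt-Rnr2 and mt-Cytb sit at -1.23 and -1.28.

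The ribosomal RNAs moved together at 24 h and far apart at 3 d. mt-Rnr1 (ENSMUSG00000064337, mitochondrial DNA 70 to 1024, plus strand) encodes the small and mt-Rnr2 (ENSMUSG00000064339, 1094 to 2675, plus strand) the large ribosomal RNA of the mitochondrion, separated by the gene of 1 transfer RNA. At 4 h mt-Rnr1 changed by 0.49 (SE 0.0588, DESeq2 adjusted p = 1.73e-16) and with edgeR by -0.44 in the authors' deposited table, and mt-Rnr2 by 0.82 (SE 0.0953, adjusted p = 2.51e-17) and with edgeR by -0.12, which edgeR did not call (adjusted p = 0.0782). At 24 h both fell, mt-Rnr1 with a change of -0.52 (SE 0.0473) and mt-Rnr2 with -0.57 (SE 0.0756) in the authors' deposited table. At 3 d mt-Rnr2 was 2.34-fold lower, with a change of -1.23 (SE 0.0898, DESeq2 adjusted p = 2.78e-41) in the authors' deposited table. mt-Rnr1 was at -0.01 at that time, with a 95% interval of -0.10 to 0.07 (DESeq2 adjusted p = 0.810), while edgeR placed it at -0.14 and called it lower (adjusted p = 0.00613). The change of mt-Rnr2 minus that of mt-Rnr1 was 0.33 at 4 h, -0.05 at 24 h and -1.21 at 3 d with DESeq2, and 0.33, -0.05 and -1.22 with edgeR. The 3 d gap between them is thus the same under either scaling. Ribosomal RNAs carry few adenosines at their ends and poly(A) selection is meant to leave them out, so their rows describe the captured part of each RNA.

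Complex I, the NADH dehydrogenase, holds 7 mitochondrially encoded subunits, of which 5 are not copied whole. mt-Nd1 (ENSMUSG00000064341, 2751 to 3707, plus strand) changed by 0.40 at 4 h (SE 0.0339), -0.84 at 24 h (SE 0.0312, DESeq2 adjusted p = 3.31e-157) and -0.67 at 3 d (SE 0.0461, adjusted p = 7.04e-47) in the authors' deposited tables. mt-Nd2 (ENSMUSG00000064345, 3914 to 4951, plus strand) gave nearly the same values in the authors' deposited tables, 0.38 (SE 0.0411), -0.84 (SE 0.0366) and -0.66 (SE 0.0823). These neighbours on the plus strand differed from each other by less than the SE of either one at each time. mt-Nd4 (ENSMUSG00000064363, 10167 to 11544, plus strand), with most of its windows in Gm28439, changed by 0.48 (SE 0.0495), -0.85 (SE 0.0766) and -0.91 (SE 0.0831) in the authors' deposited tables. mt-Nd5 (ENSMUSG00000064367, 11742 to 13565, plus strand) changed by 0.43 (SE 0.0423), -0.56 (SE 0.0387) and -0.85 (SE 0.0450) in the authors' deposited tables. mt-Nd1 and mt-Nd2 were thus lower at 24 h than at 3 d and mt-Nd5 lower at 3 d than at 24 h, but these tables were scaled separately and the difference between times was not tested.

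mt-Nd6 (ENSMUSG00000064368, 13552 to 14070, minus strand) is the one protein-coding gene of the light strand, and its end overlaps that of mt-Nd5 by 14 bases. It changed by 0.31 at 4 h (SE 0.0559, DESeq2 adjusted p = 8.19e-08), -0.41 at 24 h (SE 0.0919, adjusted p = 1.80e-05) and -0.77 at 3 d (SE 0.117, adjusted p = 2.55e-10) in the authors' deposited tables. At 24 h it fell least of the 7 members that are not copied whole. For all 5 of these complex I genes the 4 h value had the opposite sign with edgeR, between -0.46 for mt-Nd4 and -0.63 for mt-Nd6. The kit marks strand, but no label or header says whether the authors counted by strand, so mt-Nd5 and mt-Nd6 are uncertain over their shared bases. If strand was ignored, reads of the opposite precursor would count over the whole of mt-Nd6 and of the listed transfer RNA genes. The small subunits mt-Nd3 (9459 to 9806) and mt-Nd4l (9877 to 10173) had no DESeq2 call at any time. In the authors' deposited tables mt-Nd3 changed by -0.75 at 4 h (SE 1.26) and -0.64 at 3 d (SE 0.476), and mt-Nd4l by 0.36 at 4 h (SE 1.45, with -0.32 from edgeR), -0.05 at 24 h (SE 1.20) and -0.44 at 3 d (SE 0.368). mt-Nd3 was listed at 0 after 24 h of MPLA (DESeq2 adjusted p = 0.0556) and had no adjusted p at 3 d, and mt-Nd4l had none at 24 h or 3 d.

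mt-Cytb (ENSMUSG00000064370, 14145 to 15288, plus strand) encodes cytochrome b, the only mitochondrially encoded subunit of complex III. It had the largest decrease among the 7 protein-coding members that are not copied whole at both later times. At 4 h it changed by 0.46 (SE 0.0376, DESeq2 adjusted p = 7.60e-34), with -0.48 from edgeR, in the authors' deposited table. At 24 h it was 2.18-fold lower, with a change of -1.12 (SE 0.0359, DESeq2 adjusted p = 6.02e-213) in the authors' deposited table. At 3 d it was 2.43-fold lower, with a change of -1.28 (SE 0.0435, DESeq2 adjusted p = 1.64e-188) in the authors' deposited table. Of all genes tested with DESeq2, 18.7% had a value below that of mt-Cytb at 24 h and 2.83% at 3 d. The edgeR values were -1.54 and -1.41, and edgeR called both decreases too.

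mt-Co1 (ENSMUSG00000064351, 5328 to 6872, plus strand) encodes the catalytic subunit of cytochrome c oxidase, complex IV. In the authors' deposited tables it changed by 0.54 at 4 h (SE 0.0432, DESeq2 adjusted p = 1.24e-35), with -0.39 from edgeR, and by -0.50 at 24 h (SE 0.0397, adjusted p = 2.34e-36). At 3 d it was at 0.01 with a 95% interval of -0.08 to 0.10 (DESeq2 adjusted p = 0.867), and at -0.12 with edgeR (adjusted p = 0.129), so neither tool called it. It was the only one of the 7 protein-coding members that are not copied whole without a call at 3 d. The other complex IV subunits, mt-Co2 (7013 to 7696) and mt-Co3 (8607 to 9390), lie inside the copied stretch. mt-Co2 changed by 0.24 at 4 h (SE 0.513), with -0.69 from edgeR, by -1.01 at 24 h (SE 0.559, DESeq2 adjusted p = 0.103) and by -0.85 at 3 d (SE 0.373, adjusted p = 0.0421) in the authors' deposited tables. The 3 d call of mt-Co2 was lost with Benjamini-Hochberg adjustment over every DESeq2 p in the authors' deposited table (adjusted p = 0.0643). mt-Co3 changed by -0.52 at 4 h (SE 0.497, DESeq2 adjusted p = 0.370), and fell at 24 h with -1.41 (SE 0.500, adjusted p = 0.00835) and at 3 d with -1.88 (SE 0.361, adjusted p = 6.61e-07) in the authors' deposited tables. At 4 h edgeR called mt-Co3 lower (-1.43, adjusted p = 9.39e-05).

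The complex V genes mt-Atp8 (ENSMUSG00000064356, 7766 to 7969) and mt-Atp6 (ENSMUSG00000064357, 7927 to 8607) are read from 1 mRNA in overlapping frames, and mt-Nd4l and mt-Nd4 are arranged in the same way. The shared bases are shown in capitals at the 3′ ends of the upstream genes, since a read that covers them overlaps both genes.
mt-Atp8 end: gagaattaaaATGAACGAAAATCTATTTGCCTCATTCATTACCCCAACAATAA
mt-Nd4l end: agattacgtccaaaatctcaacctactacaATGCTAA
The overlap holds 43 bases of mt-Atp8 and mt-Atp6, and 7 of mt-Nd4l and mt-Nd4. mt-Atp6 changed by -0.47 at 4 h (SE 0.638, DESeq2 adjusted p = 0.550), -1.43 at 24 h (SE 0.647, adjusted p = 0.0429) and -1.27 at 3 d (SE 0.421, adjusted p = 0.00539) in the authors' deposited tables. With Benjamini-Hochberg adjustment over every DESeq2 p in the authors' deposited table, mt-Atp6 was no longer called at 24 h (adjusted p = 0.0572). mt-Atp8 changed by -0.46 (SE 1.08), -1.65 (SE 1.05) and -0.81 (SE 0.484) in the authors' deposited tables and was called by DESeq2 at no time (adjusted p = 0.739, 0.162 and 0.151). With edgeR mt-Atp6 was called lower at 4 h (-1.45, adjusted p = 0.001004) and mt-Atp8 at 24 h (-2.42, adjusted p = 0.0232).

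The members inside the copied stretch had SEs of 0.497 to 1.45 at 4 h, 0.500 to 1.22 at 24 h and 0.361 to 0.484 at 3 d. Those of the 7 other protein-coding members were 0.0339 to 0.0559, 0.0312 to 0.0919 and 0.0435 to 0.117, and the medians of all tested genes 0.201, 0.137 and 0.0883. The groups of SEs did not overlap at any time, but this rests on placing mt-Atp8 by position. By its share of windows, 0%, mt-Atp8 would join the 7 others, and with its SEs of 1.08, 1.05 and 0.484 the groups would overlap. The split was set with the values known. Of the 6 members inside the stretch, 0 were called higher at 4 h, and 2 and 3 lower at 24 h and 3 d. Of these 6, 1 had no adjusted p at 24 h and 2 had none at 3 d. Of the 7 others 7, 7 and 6 were so called, against 31.8%, 32.2% and 25.8% of all tested genes. mt-Co1 and mt-Nd4, with 51.1% and 62.2% of their windows shared, had SEs among those of the unshared members. The chromosome 1 copies were themselves listed, 7 at 4 h, 6 at 24 h and 7 at 3 d, with SEs of 0.324 or more where they had an adjusted p. In the authors' deposited tables Gm28437, the copy of mt-Co3, changed by -0.58 (SE 0.602) at 4 h, -1.47 (SE 0.599, DESeq2 adjusted p = 0.0230) at 24 h and -1.54 (SE 0.396, adjusted p = 2.63e-04) at 3 d, within 1 SE of mt-Co3 each time. Gm28661 changed by 0.27 (SE 0.630), -0.87 (SE 0.673) and -0.78 (SE 0.422) in the authors' deposited tables, beside the values of mt-Co2 above. The called copies were Gm28437 at 24 h and 3 d and Gm29216 at 24 h, which changed by -1.04 (SE 0.487, DESeq2 adjusted p = 0.0498), all lower. No label or header says how reads that match more than 1 place were counted. Read counts are not known either. The parts of shared reads and of low read counts in these values were not tested, and the values of the 6 members and of the copies are uncertain.

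**Figure D2:**
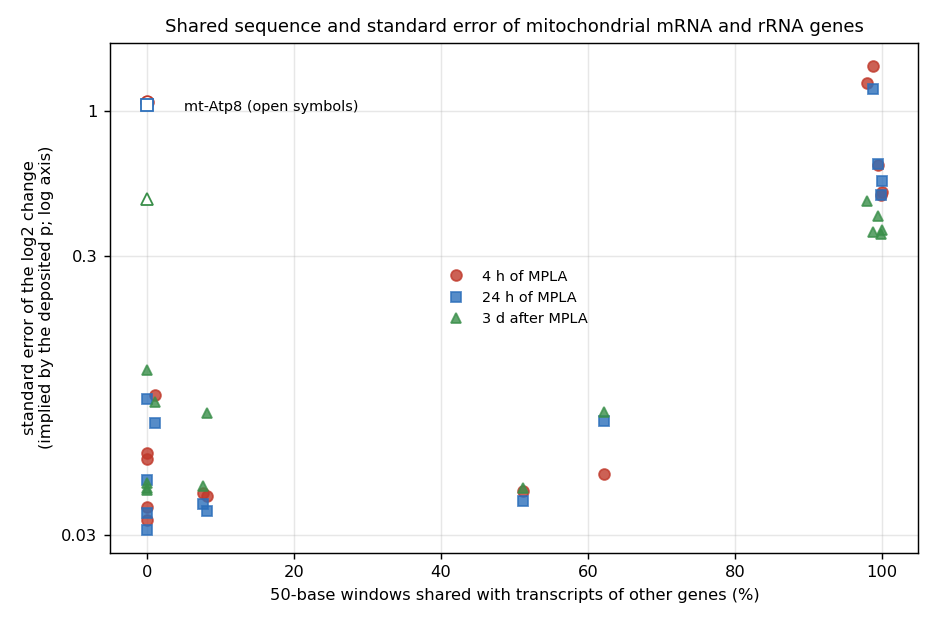
Standard error of the log2 change implied by the deposited p (vertical axis, log scale) against the share of a gene's 50-base windows found in transcripts of other genes (horizontal axis, percent), for the mitochondrial ribosomal RNA and protein-coding genes with reads in both groups, with 1 symbol per time. The 5 genes at the right edge sit at 0.361 or more, the others at 0.117 or less, except mt-Atp8 (open symbols), which shares no annotated window and sits at 0.484 or more. Transfer RNA genes are not drawn. Of these, mt-Tc shares 0% and had SEs of 0.798, 0.824 and 0.463, and mt-Tp shares 0% and had 0.105, 0.108 and 0.0973.

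The 3 transfer RNA genes listed, mt-Tc, mt-Te and mt-Tp, are encoded on the light (minus) strand. The annotation holds 8 transfer RNA genes there and 14 on the plus strand, of which 0 were listed. Their sequences are shown with the anticodon in capitals.
mt-Tp: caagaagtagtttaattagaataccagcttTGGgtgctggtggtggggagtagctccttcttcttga
mt-Tc: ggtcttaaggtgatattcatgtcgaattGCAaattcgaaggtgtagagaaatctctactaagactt
mt-Te: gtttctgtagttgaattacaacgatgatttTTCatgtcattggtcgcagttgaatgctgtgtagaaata
mt-Tp (ENSMUSG00000064372, 15356 to 15422) reads proline codons and lies next to the control region, which holds the promoters. It changed by 0.41 at 4 h (SE 0.105, DESeq2 adjusted p = 1.81e-04), with -0.53 from edgeR, and fell with -0.42 at 24 h (SE 0.108, adjusted p = 2.17e-04) and -0.72 at 3 d (SE 0.0973, adjusted p = 4.95e-13) in the authors' deposited tables. These values differed from those of mt-Nd6, the other light-strand gene with a small SE, by less than the SE of mt-Tp at each time. mt-Tc (5192 to 5257), the cysteine transfer RNA, changed by -0.10 (SE 0.798), -1.29 (SE 0.824) and -1.06 (SE 0.463) in the authors' deposited tables and was called by DESeq2 at 3 d (adjusted p = 0.0400), a call lost with Benjamini-Hochberg adjustment over every deposited p (adjusted p = 0.0613). mt-Te (14071 to 14139), the glutamate transfer RNA, was listed at 0 in the controls in the 24 h and 3 d tables, without an adjusted p, and was not listed at 4 h. Transfer RNA genes are poorly captured in polyadenylated libraries, so these rows describe the captured RNA only. Whether that was cut or precursor RNA is not known. Nor is it known whether reads were counted by strand, as for mt-Nd6.

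The precisely measured members lay closer together at 4 h than at 3 d. Taking mt-Co1 as the reference within each table, the other 6 protein-coding members that are not copied whole lay between -0.23 (mt-Nd6) and -0.07 (mt-Nd4) at 4 h. At 24 h mt-Cytb lay at -0.62, mt-Nd4 at -0.35, mt-Nd1 and mt-Nd2 at -0.33, mt-Nd5 at -0.05 and mt-Nd6 at 0.10. At 3 d the order from the lowest was mt-Cytb at -1.29, mt-Nd4 at -0.92, mt-Nd5 at -0.86, mt-Nd6 at -0.78, mt-Nd1 at -0.68 and mt-Nd2 at -0.67. Relative to mt-Co1, mt-Cytb RNA was 1.53-fold lower at 24 h and 2.44-fold lower at 3 d. mt-Rnr2 lay at 0.28, -0.07 and -1.24 and mt-Rnr1 at -0.05, -0.01 and -0.02 at the 3 times, so mt-Rnr1 stayed close to mt-Co1 at each time. Neighbours in the 3 d order from mt-Nd4 to mt-Nd2 differed by less than the larger SE of the pair, while the gap between mt-Cytb and mt-Nd4 was larger than both SEs. None of these differences depends on the scaling, since DESeq2 and edgeR differed by at most 0.0131 in any of them. They carry no test of their own, because the tables give no values per library. No table gives a depth per library, but the difference between the unscaled ratios and the edgeR values implies that the library sizes edgeR used, any scaling factor included, were 2.32 times those of the controls at 3 d, 0.859 times at 4 h and 0.934 times at 24 h. The part of depth in this was not tested.

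The median nuclear subunit of complexes I, III and IV lay above the mitochondrial members that are not copied whole, taken at their median in complex I, at 24 h, although single nuclear subunits of complex I lay as low. Of 75 nuclear genes of complexes I to V, 34 were higher and 19 lower at 24 h with DESeq2, with a median of 0.06, while edgeR gave 8 higher and 52 lower. The DESeq2 shares were 45.3% and 25.3%, against 32.4% and 32.2% of all tested genes. Over all genes edgeR gave 13.5% higher and 50.1% lower at 4 h, 16.2% and 41.8% at 24 h, and 15.5% and 27.7% at 3 d. At 4 h 49 were higher and 9 lower with DESeq2 (median 0.30) and 1 higher and 71 lower with edgeR, and at 3 d 14 were higher and 35 lower with DESeq2 (median -0.10) and 4 and 50 with edgeR. All tested genes gave 31.8% higher and 31.0% lower at 4 h and 29.5% and 25.8% at 3 d with DESeq2. With baySeq 3 were higher and 2 lower at 3 d, against 11.6% and 4.84% of all genes. Most of the 3 d DESeq2 calls were thus not made by baySeq, which also called smaller shares of all genes than DESeq2. By complex, the nuclear genes higher and lower at 24 h with DESeq2 were 16 and 11 for complex I, 4 and 2 for complex III, 8 and 2 for complex IV and 5 and 3 for complex V. Within complex I, the median of the 5 mitochondrial members that are not copied whole minus that of 36 nuclear subunits was 0.25 at 4 h, -0.89 at 24 h and -0.72 at 3 d. For complex III, mt-Cytb minus the median of 9 nuclear subunits was -0.05, -1.18 and -1.15. For complex IV, mt-Co1 minus the median of 11 nuclear subunits was 0.00, -0.71 and 0.14. The gap between these medians at 24 h was thus present in complexes I, III and IV, and at 3 d it was present for complexes I and III and not for mt-Co1. These differences are between genes of 1 table and carry no test.

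Individual nuclear subunits moved either way. Cox5a, a subunit of complex IV, rose at every time, with 1.21 at 4 h (SE 0.0537), 1.44 at 24 h (SE 0.0447) and 0.57 at 3 d (SE 0.0448) in the authors' deposited tables, and was called higher by edgeR too. Ndufa4, counted with complex IV, fell at 3 d with -1.01 (SE 0.0474, DESeq2 adjusted p = 1.90e-99) in the authors' deposited table. In complex III, Uqcr11 fell with -0.97 at 24 h (SE 0.0736) and -0.69 at 3 d (SE 0.0565), while Cyc1, which carries cytochrome c1, rose with 0.66 (SE 0.0610) and 0.28 (SE 0.0566) in the authors' deposited tables. At 4 h the highest of complex III was Uqcrfs1, the Rieske iron-sulfur protein, with 0.95 (SE 0.0555) and 0.01 from edgeR. In complex I, Ndufs4 changed by 0.97 at 4 h (SE 0.0789), with 0.04 from edgeR, and by 0.88 at 24 h (SE 0.0708), Ndufs7 fell with -0.55 at 4 h (SE 0.0898), Ndufb11 fell with -0.92 at 24 h (SE 0.0658) and -0.44 at 3 d (SE 0.0508), and Ndufa12 rose with 0.37 at 3 d (SE 0.0756), all in the authors' deposited tables. In complex V, Atp5b, the catalytic beta subunit, changed by 0.93 at 4 h (SE 0.0331) with -0.01 from edgeR, and by 0.84 at 24 h (SE 0.0285) and 0.21 at 3 d (SE 0.0313) in the authors' deposited tables. Atp5g2 fell with -0.29 at 4 h (SE 0.0805) and -0.88 at 24 h (SE 0.0844), and Atp5k with -0.31 at 3 d (SE 0.0587), in the authors' deposited tables.

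**Figure D3:**
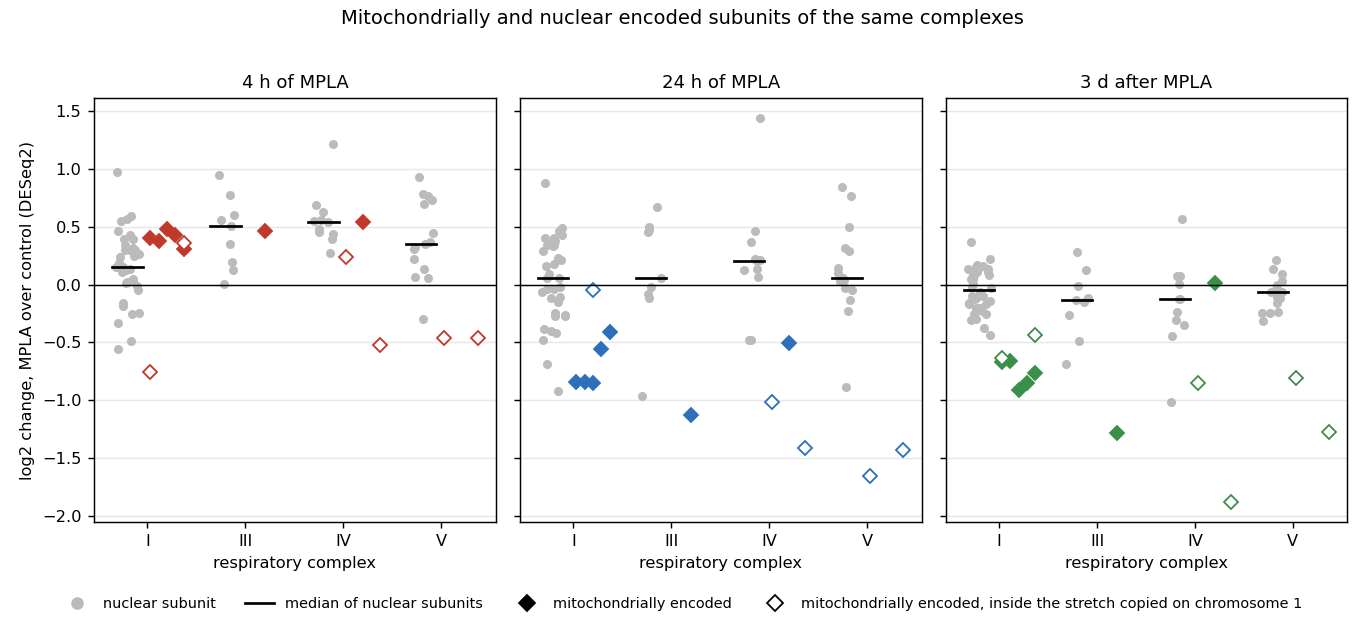
Log2 change against control with DESeq2 (vertical axis) of nuclear subunits (grey circles, bar at their median) and mitochondrially encoded subunits (diamonds, open where inside the stretch copied on chromosome 1) of complexes I, III, IV and V (horizontal axis), with 1 panel per time and genes listed at 0 in a group left out. At 24 h the filled diamonds sit at -0.41 or lower under nuclear medians between 0.05 and 0.20, and at 3 d that of complex IV (mt-Co1) sits at 0.01.

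Complex II has no mitochondrially encoded subunit and serves as the all-nuclear comparison. Of its 4 genes, 2 were higher and 1 lower at 4 h, 1 and 1 at 24 h and 2 and 1 at 3 d with DESeq2, and 0 and 4, 1 and 3, and 1 and 2 with edgeR. The DESeq2 shares over all tested genes were 31.8% and 31.0%, 32.4% and 32.2%, and 29.5% and 25.8%. Those of edgeR over all genes were 13.5% and 50.1%, 16.2% and 41.8%, and 15.5% and 27.7%. Sdhb, the iron-sulfur subunit, fell with -0.26 at 4 h (SE 0.0591) and rose with 0.61 at 24 h (SE 0.0478) and 0.32 at 3 d (SE 0.0459) in the authors' deposited tables. Sdhc changed by 0.32 at 4 h (SE 0.0496), with -0.62 from edgeR, and fell with -0.11 at 3 d (SE 0.0424), and Sdha, the flavoprotein, fell with -0.12 at 24 h (SE 0.0340), in the authors' deposited tables.

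Of 6 nuclear genes that stabilise or degrade mitochondrial RNA, 5 were higher at 4 h, 4 at 24 h and 6 at 3 d with DESeq2, against 31.8%, 32.4% and 29.5% of all tested genes. None were lower at any time, against 31.0%, 32.2% and 25.8%. With edgeR 3 were higher and 3 lower at 4 h, 4 and 2 at 24 h, and 5 and 0 at 3 d. Over all genes edgeR gave 13.5% and 50.1%, 16.2% and 41.8%, and 15.5% and 27.7%. The lower count at 4 h with edgeR thus lay near that of all genes and the higher count above it. Pnpt1, the polynucleotide phosphorylase of the mitochondrial degradosome, was 9.32-fold higher at 4 h, 3.97-fold at 24 h and 1.42-fold at 3 d, with changes of 3.22, 1.99 (SE 0.0562) and 0.50 (SE 0.0631) in the authors' deposited tables. Its edgeR values were 2.28, 1.58 and 0.37, also called. Pde12, which removes poly(A) tails from mitochondrial mRNA, was 10.1-fold higher at 4 h (change 3.33, with edgeR 2.40) in the authors' deposited table. For Pnpt1 and Pde12 at 4 h the deposited p was 0, so no SE could be had. Slirp, which with Lrpprc protects mitochondrial mRNAs, rose with 1.10 at 4 h (SE 0.0841), 1.51 at 24 h (SE 0.0682) and 0.43 at 3 d (SE 0.0807) in the authors' deposited tables and was called higher by edgeR too. Lrpprc itself was at -0.02 (SE 0.0663) and -0.08 (SE 0.0572) at 4 h and 24 h, not called by DESeq2, and rose at 3 d with 0.25 (SE 0.0484) in the authors' deposited tables. With edgeR it was called lower at 4 h (-0.96) and 24 h (-0.50) and higher at 3 d (0.12).

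Of 16 RNA processing genes, which cut, modify and tail mitochondrial RNA, 7 were higher and 4 lower at 4 h, 14 and 0 at 24 h and 9 and 0 at 3 d with DESeq2. Among all tested genes these shares were 31.8% and 31.0%, 32.4% and 32.2%, and 29.5% and 25.8%. With edgeR the counts were 1 and 14, 7 and 3, and 3 and 2, against 13.5% and 50.1%, 16.2% and 41.8%, and 15.5% and 27.7% of all genes. Trnt1, which adds CCA to transfer RNAs, rose with 1.48 at 4 h (SE 0.0650), and Nsun4, which acts in assembly of the mitochondrial ribosome, with 1.22 at 24 h (SE 0.100), in the authors' deposited tables. Fastkd3, of a family of mitochondrial RNA-binding proteins, fell with -1.14 at 4 h (SE 0.155) and rose with 0.69 at 3 d (SE 0.0821) in the authors' deposited tables. Mtpap, the mitochondrial poly(A) polymerase, changed by 0.72 (SE 0.0847), 0.34 (SE 0.0754) and 0.09 (SE 0.0678) with DESeq2 and by -0.22, -0.08 and -0.05 with edgeR in the authors' deposited tables. Elac2, which cuts the 3′ ends of transfer RNAs, changed by 0.00 (SE 0.114), 0.36 (SE 0.0901) and 0.09 (SE 0.0759) with DESeq2 and by -0.94, -0.06 and -0.05 with edgeR, so the direction of Mtpap and Elac2 rests on the scaling.

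Of 9 transcription genes, 2 were higher and 3 lower at 4 h, 3 and 1 at 24 h and 3 and 4 at 3 d with DESeq2, and the median was -0.36, -0.06 and -0.18. These are 22.2% and 33.3%, 33.3% and 11.1%, and 33.3% and 44.4%. Shares over all tested genes were 31.8% and 31.0%, 32.4% and 32.2%, and 29.5% and 25.8%. The 4 h counts and the higher counts at 24 h and 3 d thus lay near those of all genes. With edgeR the counts were 1 and 7, 1 and 7, and 1 and 5, against 13.5% and 50.1%, 16.2% and 41.8%, and 15.5% and 27.7% of all genes. Tefm, the mitochondrial elongation factor, rose with 1.60 (SE 0.127), 0.82 (SE 0.130) and 0.34 (SE 0.121) in the authors' deposited tables, with edgeR at 0.67, 0.41 and 0.21, the last not called. Polrmt, the mitochondrial RNA polymerase, fell with -0.79 at 4 h (SE 0.124), was at -0.06 at 24 h (SE 0.0948, not called, with edgeR at -0.47 and called lower) and rose with 0.38 at 3 d (SE 0.0751) in the authors' deposited tables. Tfb2m, which opens the promoters with the polymerase, fell at all 3 times, with -0.47 (SE 0.152), -0.93 (SE 0.142) and -0.34 (SE 0.100) in the authors' deposited tables, and was called lower by edgeR too. Mterf1b, of the termination factor family, fell with -1.08 at 3 d (SE 0.299) in the authors' deposited table.

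Of 13 genes that copy and package mitochondrial DNA, 2 were higher and 7 lower at 4 h, 6 and 5 at 24 h, and 2 and 6 at 3 d with DESeq2, and 1 and 12, 0 and 10, and 1 and 8 with edgeR. For all tested genes the DESeq2 shares were 31.8% and 31.0%, 32.4% and 32.2%, and 29.5% and 25.8%. The edgeR shares over all genes were 13.5% and 50.1%, 16.2% and 41.8%, and 15.5% and 27.7%. Tfam, which packages the DNA and starts transcription, changed by 0.52 (SE 0.0973), 0.36 (SE 0.0834) and -0.07 (SE 0.0771) with DESeq2 and by -0.41, -0.06 and -0.21 with edgeR in the authors' deposited tables. Its sign thus turned with the scaling at 4 h and 24 h. Peo1, the replicative helicase Twinkle, fell with -2.32 at 4 h (SE 0.256, DESeq2 adjusted p = 4.38e-19), and Rnaseh1, which removes RNA primers, rose with 1.67 (SE 0.0903), in the authors' deposited table. Rnaseh1 changed by 0.58 at 24 h (SE 0.103, edgeR adjusted p = 0.0570), and Tk2, the mitochondrial thymidine kinase, fell with -1.08 (SE 0.0620), in the authors' deposited table. At 3 d Polg2, the accessory subunit of the polymerase, fell with -0.55 (SE 0.116) and Top1mt, the mitochondrial topoisomerase, rose with 0.67 (SE 0.158) in the authors' deposited table. Of 12 translation factors, 2 were higher and 6 lower at 4 h, 4 and 1 at 24 h and 3 and 2 at 3 d with DESeq2, and 0 and 11, 1 and 7, and 3 and 4 with edgeR. The DESeq2 and edgeR counts stand beside the same all-gene shares as those of the 13 genes above. Oxa1l, which inserts mitochondrially made proteins into the inner membrane, fell with -1.28 at 4 h (SE 0.0707) and -0.51 at 24 h (SE 0.0527) in the authors' deposited tables. Gfm1, an elongation factor, changed by 0.92 at 4 h (SE 0.0686) with -0.02 from edgeR, and by 0.66 at 24 h (SE 0.0639), and at 3 d Mtrf1 rose with 0.43 (SE 0.109) and Mtrf1l fell with -0.36 (SE 0.127) in the authors' deposited tables.

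**Figure D4:**
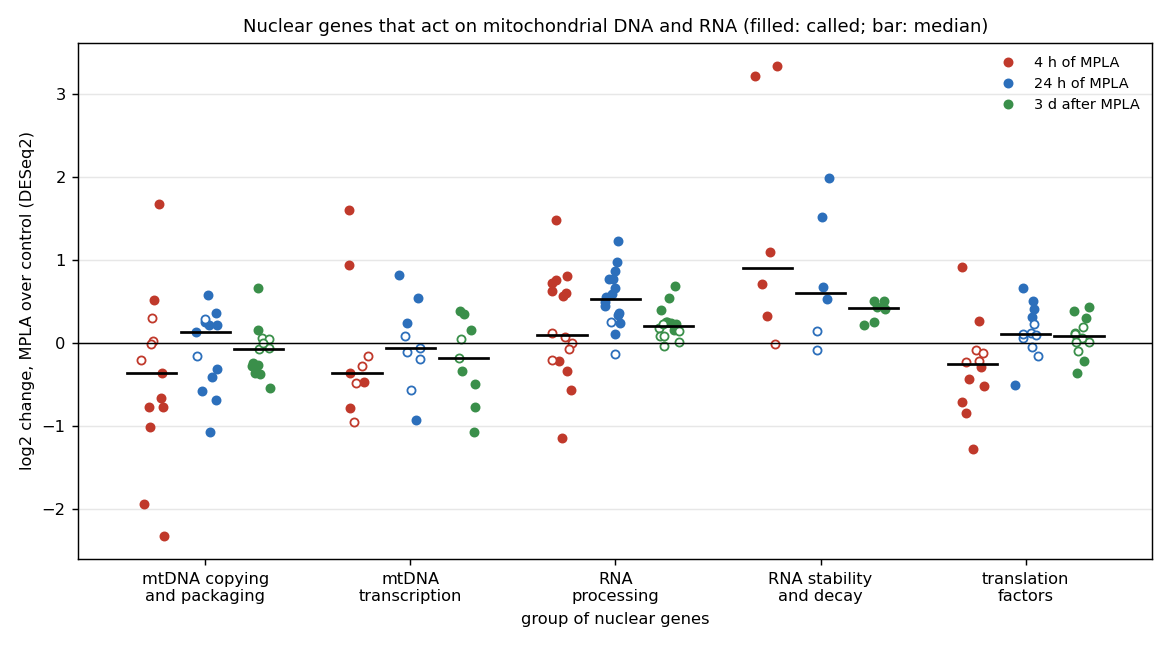
Log2 change against control with DESeq2 (vertical axis) of nuclear genes in 5 groups that act on mitochondrial DNA and RNA (horizontal axis), at 3 times by colour, filled where called and with a bar at each median. The medians of the stability and decay group are 0.90, 0.60 and 0.42, and Pnpt1 and Pde12 at 4 h are the points above 3.

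Macrophage markers were present, with 10 of 10 listed with reads in both groups in each table, of which 6 were higher and 3 lower at 4 h, 4 and 6 at 24 h and 5 and 5 at 3 d with DESeq2. For this and the other marker counts, the shares over all tested genes were 31.8% and 31.0%, 32.4% and 32.2%, and 29.5% and 25.8%. Of 8 neutrophil markers 6, 5 and 5 were listed in the 3 tables, of 6 B cell markers 5, 4 and 5, and of 7 T and NK cell markers 2, 3 and 4. Of 6 dendritic cell markers 6 were listed in each, of 5 stromal markers 5, and of 5 erythroid markers 2. Higher and lower calls with DESeq2 were 0 and 0, 1 and 0, and 1 and 0 for neutrophils, 0 and 1, 0 and 2, and 1 and 1 for B cells, and 0 and 1, 0 and 2, and 1 and 0 for T and NK cells. They were 3 and 0, 1 and 1, and 0 and 1 for dendritic cells, 3 and 0, 3 and 0, and 1 and 0 for stromal cells, and 0 and 0 at each time for erythroid cells. Levels of these markers cannot be read from the tables, and their part in the mitochondrial values was not tested.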

How the data were processed

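RNA-seq was made from polyadenylated RNA of 12 libraries with a stranded kit, per the labels' protocols. Tools listed in the submitters' processing notes, with no versions, are TopHat2, HTSeq, bcl2fastq, DESeq, DESeq2 and edgeR, and the build is mm10. Annotation release, counting settings and strand use are not given in the sources used here. The 3 deposited tables, 1 per MPLA group against the same 3 controls, give per gene the authors' DESeq2 and edgeR results (log2 fold change with raw and adjusted p-values), a log2 ratio without scaling, and baySeq scores, per the file headers. They hold no counts and no values per library, so the depth of each library is unknown and count tests were not run; the authors' deposited p-values were used. Only the ratio of the library sizes of the 2 groups, any scaling factor included, could be inferred, from the near-constant difference between the authors' unscaled log2 ratio and edgeR log2 change.

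Deposited log2 values ran control over MPLA and had their sign changed here. The group order in each comparison and the values of Il6, Tnf and Cxcl10 settled this. A gene was called where the authors' DESeq2 adjusted p was under 0.05, and NA counted as not tested. The implied SE is the size of the change over the normal quantile of the deposited p-value, and the 95% interval is 1.96 SE to each side. Percentiles and medians of all genes are over those with an adjusted p, and medians of the protein-coding members are over all 13. Shared windows of 50 bases, overlaps and coordinates come from GENCODE vM21. The alternatives were the authors' edgeR columns, Benjamini-Hochberg adjustment over every deposited p-value, a baySeq error rate under 0.05, calls shared by the 3 tools, the unscaled ratio, the distance from the median of all genes, and medians over fewer members. Named were all members, the called gene with the highest and that with the lowest change of each nuclear list in each table, and always Tfam, Polrmt, Tefm, Tfb2m, Lrpprc, Slirp, Pnpt1, Mtpap and Elac2. The members, the 10 nuclear lists and the 7 marker lists were chosen with earlier results of these data known. The scripts (Python 3.11.15, pandas 2.3.3, scipy 1.17.1) were tested on simulated data.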

Additional observations from a re-analysis of the deposited data

How the results depend on the processing

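No paired analysis was possible because the tables carry no values per library, and left-out libraries, with or without a replicate block, were not run for the same reason. The calls at 4 h turned with the scaling. With edgeR 0 members were higher and 11 lower at 4 h, with baySeq, given the direction of DESeq2, 5 were higher, and 0 were higher with all 3 tools. The edgeR values at 4 h were -0.44 for mt-Rnr1, -0.12 for mt-Rnr2, -0.54 for mt-Nd1, -0.56 for mt-Nd2, -0.39 for mt-Co1, -0.69 for mt-Co2, -0.32 for mt-Nd4l, -0.46 for mt-Nd4, -0.51 for mt-Nd5, -0.63 for mt-Nd6, -0.48 for mt-Cytb and -0.53 for mt-Tp, and at 3 d -0.12 for mt-Co1. Calls of members by DESeq2 that ended with Benjamini-Hochberg adjustment over every p were those of mt-Atp6 at 24 h (adjusted p = 0.0572) and mt-Tc and mt-Co2 at 3 d (0.0613 and 0.0643), and with baySeq those of mt-Nd5 at 24 h and of mt-Nd1, mt-Nd5, mt-Co2 and mt-Tc at 3 d. For nuclear genes the edgeR values were -0.0067 for Atp5b, -0.94 for Elac2, -0.018 for Gfm1, -0.22 for Mtpap, -0.62 for Sdhc and -0.41 for Tfam at 4 h, -0.056 for Elac2, -0.076 for Mtpap and -0.059 for Tfam at 24 h, and -0.046 for Elac2 and -0.049 for Mtpap at 3 d. The median of the protein-coding members at 4 h was -0.56 with edgeR, -0.79 unscaled, 0.24 without overlapping members and, as an alternative chosen after seeing the data, 0.43 over the 7 not copied whole. At 24 h it was -1.26, -1.37 and -1.12 under the first 3 of these and -0.80 from the median of all genes, and at 3 d -1.21 with edgeR and -0.029 unscaled, where the inferred library sizes differed. Oxidative phosphorylation genes higher were 1 with edgeR, 28 with baySeq and 1 with all 3 tools at 4 h, 8, 17 and 8 at 24 h, and 4, 3 and 3 at 3 d, and those lower were 71 with edgeR at 4 h, 52 with edgeR and 29 with baySeq at 24 h, and 2 with baySeq and 2 with all 3 tools at 3 d. Mitochondrial DNA and RNA factors higher were 6 with edgeR and 6 with all 3 tools at 4 h, 13, 18 and 13 with edgeR, baySeq and all 3 tools at 24 h, and 13, 10 and 10 at 3 d, and those lower were 47 with edgeR at 4 h, 29 with edgeR and 12 with baySeq at 24 h, and 19, 1 and 1 at 3 d. The cause of these moves was not tested beyond the constant between the tools. Shares called over all genes differed between the tools too, as given above. Of all values tried, 45 counts and medians stayed close to the reported ones, while 40 moved and 2 changed sign. For members, 160 values kept their direction and side of the threshold, 28 lost their call, 11 gained one and 13 changed sign. For nuclear genes, 235 values kept both, 40 lost their call, 6 gained one and 11 changed sign.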
